A study of Mus musculus with 12 samples.

Results

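The data describe 10 transcription factors of the airway epithelium, namely Foxa1, Foxa2, Gata6, Nkx2-1, Sox2, Sox4, Sox9, Klf4, Klf5 and Trp63, in a mouse club cell line exposed to TGF-β1 with or without knockdown of Pdcd5. The 10 genes were found by their symbols among the 23282 rows of each count table, and 6 of them passed the filter on low counts that left 12425 genes for testing. Foxa2, Gata6, Sox4, Sox9, Klf4 and Klf5 passed, whereas Foxa1, Nkx2-1, Sox2 and Trp63 lay at or near 0 counts. The genes were chosen by symbol with earlier results of these data known, and which of their measured levels weighed in that choice is not recorded, so their values and calls are a description and lend no independent support to any pattern.

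C22 is a cloned line of club (Clara) cells derived from H-2Kb-tsA58 mice, whose temperature-sensitive T antigen lets the cells divide at a permissive temperature with gamma-interferon and differentiate without it. All 12 libraries came from this single line. Differentiated cells were used. NC cells carried the negative control and siPdcd5 cells carried the small interfering RNA against Pdcd5, and each kind of cell was either left untreated or, after a short serum starvation, given 20 ng/ml TGF-β1 for 24 h. The 4 groups, named NC, siPdcd5, NC + TGF-β1 and siPdcd5 + TGF-β1, held 3 libraries each, made with a kit that reads the 3′ ends of polyadenylated RNA. The labels do not say whether the 3 libraries of a group came from separate cultures, so p-values measure only the spread between these libraries.

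Foxa1 and Foxa2 are forkhead pioneer factors that open chromatin in lung endoderm, and with the homeodomain factor Nkx2-1 and the zinc finger factor Gata6 they drive genes of the differentiated airway and alveolar epithelium, secretoglobins and surfactant proteins among them. Sox2 marks the proximal airway and Sox9 the distal tips of the developing lung, and Sox4 is a related HMG box factor of progenitor and migrating cells. Klf4 and Klf5 are zinc finger factors of epithelial barrier and growth programmes, and Trp63 maintains basal cells. TGF-β1 signals through receptor serine kinases to SMAD factors, which bind short CAGA-type elements in DNA.

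After TGF-β1 in NC cells Foxa2 fell most of the 6 factors and Sox4 had the smallest estimated change, so the DNA upstream of the annotated starts of these genes is shown for reference. Both stretches are the upstream part of windows from the RefSeq promoter table, read on the minus strand of GRCm38 and written 5′ to 3′, with the capitals marking TGTCTG, the reverse complement of the SMAD-type element CAGACA. They lie at chr2:148046970-148047219 for Foxa2 and at chr13:28953714-28953949 for Sox4.
Foxa2: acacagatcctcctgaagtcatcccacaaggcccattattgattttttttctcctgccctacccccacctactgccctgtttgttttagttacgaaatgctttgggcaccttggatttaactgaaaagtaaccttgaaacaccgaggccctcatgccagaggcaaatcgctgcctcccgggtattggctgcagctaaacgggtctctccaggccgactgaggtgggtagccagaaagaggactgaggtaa
Sox4: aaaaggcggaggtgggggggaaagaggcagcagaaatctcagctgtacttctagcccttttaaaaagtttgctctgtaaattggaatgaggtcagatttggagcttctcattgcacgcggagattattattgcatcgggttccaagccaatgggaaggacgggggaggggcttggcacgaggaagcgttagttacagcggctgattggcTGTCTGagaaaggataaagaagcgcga
The Sox4 stretch held CAGACA on the other strand 41 bases before the RefSeq start site at 28953699. That site lies inside the annotated gene, so the printed stretch was cut to the 236 bases before the annotated start. The Foxa2 stretch held none of the 9 motifs searched on both strands, namely the SMAD-type CAGACA, a second SMAD-type element GGCGCC, the forkhead element TGTTTAC with its variant form TATTTAC, the GATA element AGATAA, the SOX element ACAATG with its variant form ACAAAG, the NKX2-1 element CACTTG, and the KLF element GGGTGG. Of 32841 windows with 250 upstream bases, 17.1% held CAGACA, 9.59% GGCGCC, 3.17% TGTTTAC, 2.73% TATTTAC, 9.99% AGATAA, 10.7% ACAATG, 16.5% ACAAAG, 11.6% CACTTG and 28.1% GGGTGG. Of the 6 factors that passed the filter, 3 had a window, the third being Klf4, whose window held none of the motifs. Foxa2 has 2 further annotated starts inside the gene, and the window of the one at 148045464 held AGATAA, the SOX form ACAAAG, the SMAD-type GGCGCC and GGGTGG, while that of the one at 148045948 held GGGTGG alone. A match describes letters only and is not evidence of binding.

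Each library held between 12809857 and 17714828 counts, so that 3 counts, taken as the smallest level a library can show, stood for 0.165 to 0.239 CPM, counts scaled to a common library size. The targeted gene Pdcd5 fell by 69.1% after knockdown without TGF-β1 and fell by 64.5% with it (Benjamini-Hochberg adjusted p of 1.09e-06 and 5.47e-06, edgeR). Replicate 2 of NC + TGF-β1 and replicate 1 of siPdcd5 stood apart from their own groups. Against their fellow replicates these libraries gave a chi-square per degree of freedom of 26.8 to 62.7 over genes, compared with 4.40 to 12.1 for the remaining pairs of replicates, and calls of the factors that rest on them are given with and without them. Changes in these bulk libraries can come from fewer cells of a kind or from less RNA per cell, which cannot be told apart.

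Few of the listed markers bore out the label of a club cell. Of 20 club cell markers, 9 had at most 3 counts in any library and 5 of these had none, among them Scgb3a2 and the cytochrome Cyp2f2. Scgb1a1, the secretory protein that defines club cells, had 1 count in all 12 libraries together. Aldh1a1 and Cbr2, which encode a retinal dehydrogenase and a carbonyl reductase, were the 2 club cell markers that passed the filter. Epcam had 1 count in all, whereas the keratins Krt8 and Krt18 averaged 189 ± 19.2 and 495 ± 16.7 CPM in NC cells (SD, n = 3). Of 11 mesenchymal markers 8 passed the filter, and Col1a1 and Vim averaged 2719 ± 76.4 and 2082 ± 164 CPM in NC cells (SD, n = 3). The mesenchymal markers Lum, Thy1 and Tcf21 did not pass, with 1, 48 and 0 counts in all.

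Among the pioneer factors, Foxa2 was well expressed in every library. It had 183, 161 and 172 CPM in the NC libraries and 49.7, 52.2 and 49.1 CPM in the NC + TGF-β1 libraries. In siPdcd5 cells it had 213, 198 and 196 CPM without TGF-β1 and 70.5, 76.6 and 66.5 CPM with it. The libraries of each treated group lay far below those of both untreated groups, and among treated cells all siPdcd5 libraries lay above all NC libraries. The group means were 172 ± 11.1 CPM in NC, 50.3 ± 1.62 CPM in NC + TGF-β1, 203 ± 9.15 CPM in siPdcd5 and 71.2 ± 5.09 CPM in siPdcd5 + TGF-β1 (SD, n = 3 each). From high to low the order was siPdcd5, NC, siPdcd5 + TGF-β1 and NC + TGF-β1, and no library crossed from one group to the next. Foxa2 is a gene on chromosome 2 of GRCm38 from 148042877 to 148046969, on the minus strand.

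**Figure D1:**
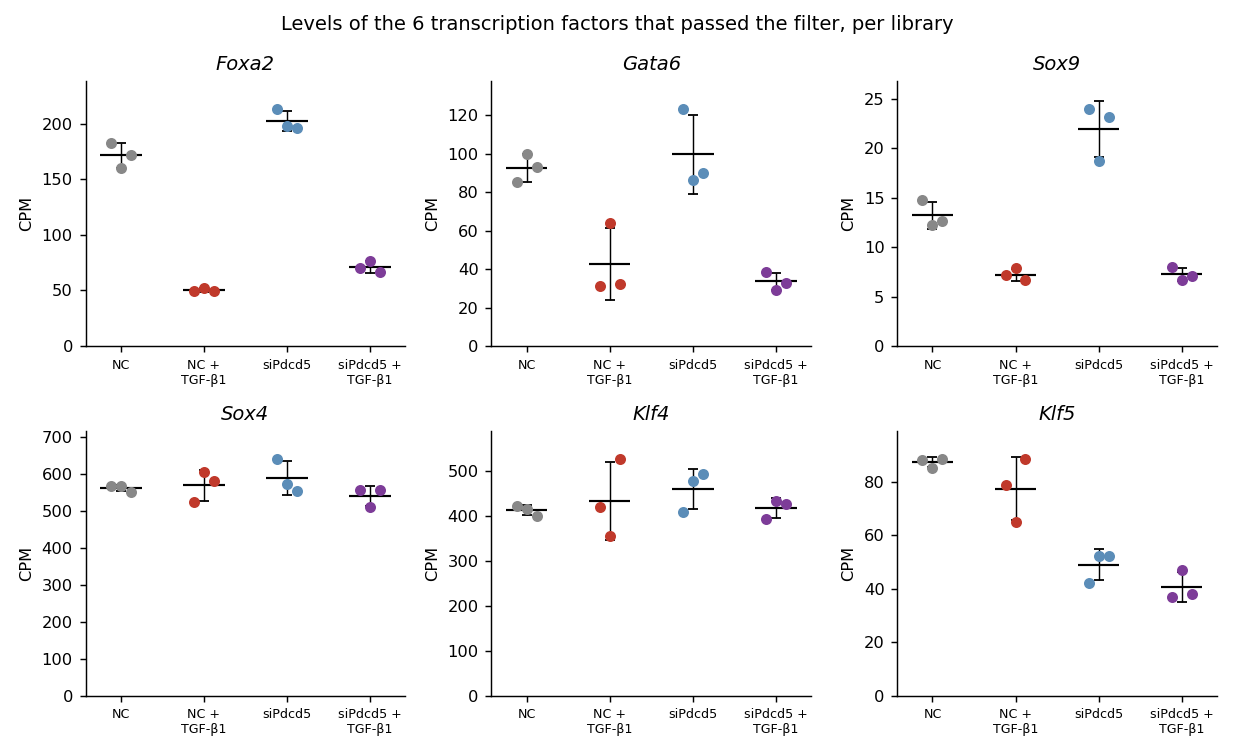
Levels of Foxa2, Gata6, Sox9, Sox4, Klf4 and Klf5 in CPM (linear axes from 0, 1 panel per gene) in the 12 libraries by group, with each point a library and the bar and whiskers the mean and SD of 3 libraries. Foxa2 lies between 49.1 and 52.2 CPM in NC + TGF-β1 against 161 to 183 CPM in NC, and the panels of Sox4 and Klf4 show overlapping groups.

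Gata6, the GATA factor of the lung endoderm, also had lower levels in treated cells, with 1 library out of line in each of 2 groups. Its levels were 85.2, 99.6 and 92.8 CPM in NC and 31.1, 64.0 and 32.5 CPM in NC + TGF-β1. They were 123, 86.1 and 89.7 CPM in siPdcd5 and 38.4, 29.2 and 33.0 CPM in siPdcd5 + TGF-β1. The libraries with 64.0 and 123 CPM are the ones that stood apart over all genes, and even with them every treated library lay below every untreated one. The means were 92.5 ± 7.23, 42.5 ± 18.6, 99.6 ± 20.3 and 33.5 ± 4.60 CPM (SD, n = 3) in the untreated and treated NC cells and the untreated and treated siPdcd5 cells, in that order. Within the untreated and within the treated pair of groups the libraries overlapped. Gata6 lies on chromosome 18 from 11052064 to 11085635 on the plus strand, where the antisense transcript 1010001N08Rik, with 13 to 47 counts per library, overlaps its 5′ part.

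Sox9, the distal tip factor, was expressed at a low but countable level. It had 14.8, 12.2 and 12.6 CPM in NC and 7.17, 7.85 and 6.65 CPM in NC + TGF-β1. Knockdown cells had 23.9, 18.7 and 23.1 CPM without TGF-β1 and 7.99, 6.71 and 7.06 CPM with it. Untreated siPdcd5 libraries were the highest of all, NC libraries came next, and the treated groups shared 1 range at the bottom. The means were 13.2 ± 1.36 CPM in NC, 7.22 ± 0.600 CPM in NC + TGF-β1, 21.9 ± 2.81 CPM in siPdcd5 and 7.25 ± 0.659 CPM in siPdcd5 + TGF-β1 (SD, n = 3). The gene lies on chromosome 11 from 112782224 to 112787760 on the plus strand.

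Klf5, a Krüppel-like factor of proliferating epithelium, followed the knockdown rather than the treatment. In cells with the negative control it had 88.1, 85.1 and 88.4 CPM without TGF-β1 and 78.6, 65.0 and 88.4 CPM with it. In siPdcd5 cells it had 42.2, 52.1 and 52.3 CPM without TGF-β1 and 37.0, 47.1 and 38.0 CPM with it. All 6 knockdown libraries lay below all 6 libraries with the negative control, and treated and untreated libraries overlapped within each kind of cell. The means from high to low were 87.2 ± 1.79 CPM in NC, 77.3 ± 11.7 CPM in NC + TGF-β1, 48.9 ± 5.78 CPM in siPdcd5 and 40.7 ± 5.56 CPM in siPdcd5 + TGF-β1 (SD, n = 3). Klf5 lies on chromosome 14 from 99298691 to 99315036 on the plus strand.

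Sox4 and Klf4 differed little between groups. Sox4 ranged from 551 to 567 CPM in NC, 523 to 606 CPM in NC + TGF-β1, 553 to 640 CPM in siPdcd5 and 509 to 556 CPM in siPdcd5 + TGF-β1. Its means were 562 ± 8.93, 570 ± 42.2, 588 ± 46.1 and 540 ± 26.8 CPM (SD, n = 3) in that order. Every neighbouring pair of groups overlapped, and the highest library, with 640 CPM, was replicate 1 of siPdcd5. Sox4 lies on chromosome 13 from 28948919 to 28953713 on the minus strand. The gene of the non-coding RNA Gm26735 spans its 3′ end on the opposite strand, and exons of both genes overlap. Use of strand in counting is not stated, so reads of this partner cannot be told from those of Sox4.

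Klf4, a factor of epithelial barrier and growth arrest, had 422, 415 and 400.2 CPM in NC and 420.4, 355 and 527 CPM in NC + TGF-β1. It had 409, 479 and 493 CPM in siPdcd5 and 393, 433 and 427 CPM in siPdcd5 + TGF-β1. The treated NC libraries spanned the lowest and the highest value of all 12, and no group separated from another. The means were 412 ± 11.2, 434 ± 86.8, 460.4 ± 44.9 and 418 ± 21.6 CPM (SD, n = 3) in the order of those values. The gene lies on chromosome 4 from 55527143 to 55532466 on the minus strand.

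The other 4 factors were at or near 0 counts. Foxa1, the closest relative of Foxa2, had 0 counts among the 169254317 counts of the 12 libraries, which allows a level of up to 0.0177 CPM (3 counts of the total, counting error only). Nkx2-1, the defining factor of lung epithelium, had 2 counts in all, 1 in replicate 3 of siPdcd5 and 1 in replicate 1 of siPdcd5 + TGF-β1. Sox2 had 7 counts, with 2, 1 and 0 in the NC libraries, 0, 2 and 2 in the NC + TGF-β1 libraries and 0 in all 6 knockdown libraries. Trp63 had 9 counts in 6 libraries and at most 3 in any of them. With at most 3 counts in a library these 4 genes did not pass the filter. Differences between groups were not assessed for them, and no fold change is given. Sox2 lies inside the non-coding gene Sox2ot on the same strand, which itself had 0 to 1 counts per library.

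**Figure D2:**
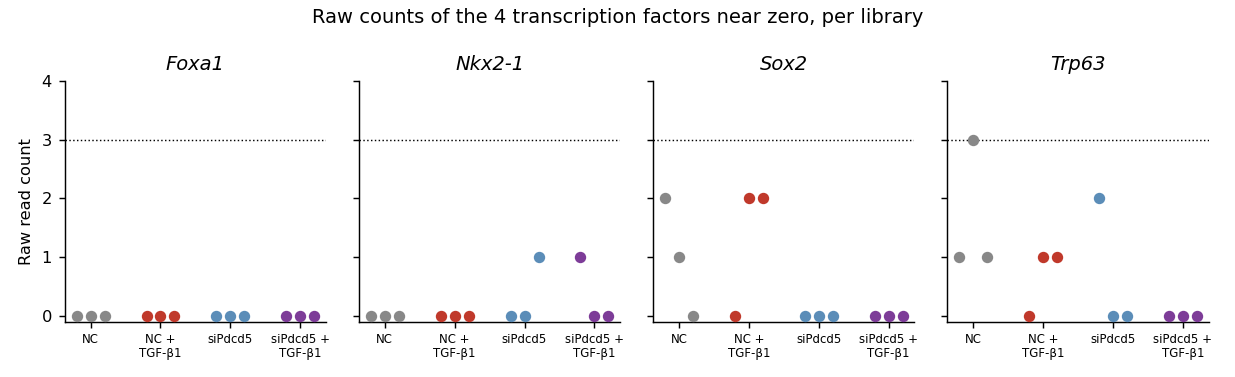
Raw read counts (linear axis) of Foxa1, Nkx2-1, Sox2 and Trp63 in each of the 12 libraries, 1 panel per gene, with a dotted line at 3 counts. Foxa1 shows 0 counts throughout, and no library holds more than 3 counts of any of the 4 genes.

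The first comparison asked how the factors respond to TGF-β1 in NC cells. Foxa2, Gata6 and Sox9 fell, and Sox4, Klf4 and Klf5 did not pass the test. At an adjusted p under 0.05, 0 of the 6 tested factors were higher and 3 lower, where 8.57% of all genes tested were higher and 6.77% lower (15.3% in either direction). The libraries of the 2 groups did not overlap for 3 of the 6, against 29.6% of all genes tested. The median log2 fold change was −0.52 over the 6 factors and 0.00499 over all genes. Since the factors were chosen with these values known, nothing is read from the shares.

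Foxa2 fell by 70.7%, or −1.77 on the log2 scale (standard error 0.0888, 95% interval −1.96 to −1.58, adjusted p = 8.02e-09 from edgeR's quasi-likelihood fit), which ranked 16 of 12425 genes by p-value. Gata6 fell by 54.0%, or −1.12 on the log2 scale (standard error 0.23, adjusted p = 0.0034, edgeR). Without replicate 2 of NC + TGF-β1 the Gata6 value was −1.54 (adjusted p = 1.12e-06, edgeR), and it was −1.55 with replicate 1 of siPdcd5 also left out. Foxa2 and Sox9 had −1.80 and −0.93 without replicate 2 of NC + TGF-β1, both still called. Sox9 fell by 45.2%, or −0.87 on the log2 scale (standard error 0.15, adjusted p = 0.00087, edgeR). The log2 fold changes of the remaining factors were −0.17 for Klf5 (95% interval −0.45 to 0.10), 0.02 for Sox4 (−0.17 to 0.21) and 0.07 for Klf4 (−0.19 to 0.34), with adjusted p of 0.430, 0.918 and 0.770 from edgeR.

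The same treatment in siPdcd5 cells, measured in 6 other libraries, gave falls of the same 3 genes. Foxa2 fell by 64.8% (log2 fold change −1.51, standard error 0.0874, adjusted p = 4.28e-08, edgeR). Gata6 fell by 66.3% (log2 fold change −1.57, standard error 0.23, adjusted p = 2.63e-04, edgeR) and Sox9 fell by 66.8% (log2 fold change −1.59, standard error 0.15, adjusted p = 3.05e-06, edgeR). Without replicate 1 of siPdcd5, which stood apart, the log2 fold changes were −1.46 for Foxa2, −1.38 for Gata6 and −1.52 for Sox9, and all 3 were still called. Among all genes 8.5% were higher and 7.61% lower (16.1% in all), and groups did not overlap for 36.1% of genes and for 3 of the 6 factors. Sox4, Klf4 and Klf5 had log2 fold changes of −0.12, −0.14 and −0.27 with adjusted p of 0.388, 0.497 and 0.197 (edgeR). Klf5 passed the test under 1 of 20 alternatives, with both libraries that stood apart left out (−0.36, adjusted p = 0.00869, edgeR). The median was −0.89 over the 6 factors and −0.03 over all genes.

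**Figure D3:**
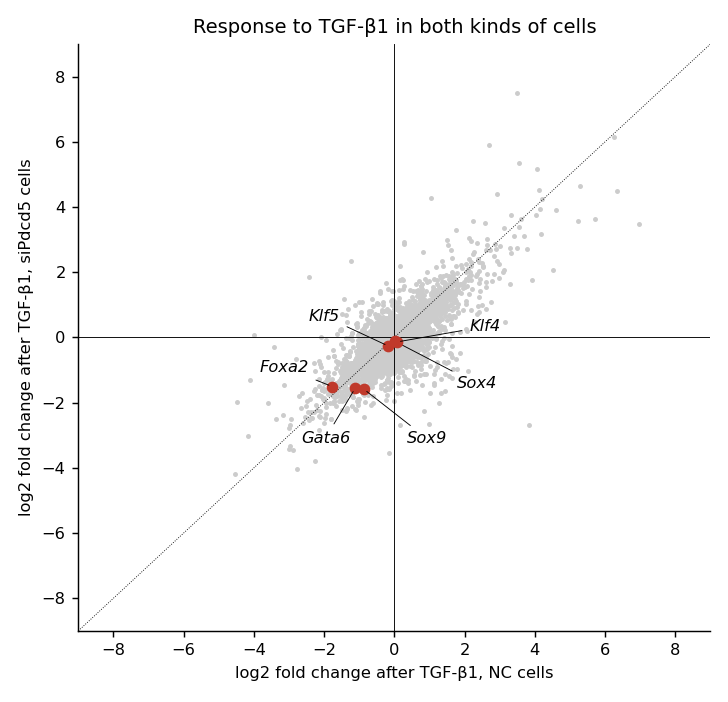
Log2 fold change after TGF-β1 in NC cells (horizontal axis) against that in siPdcd5 cells (vertical axis) for the 12425 genes tested (grey) with the 6 factors in red and the line of equal change dotted. Foxa2 (−1.77 and −1.51), Gata6 (−1.12 and −1.57) and Sox9 (−0.87 and −1.59) lie in the quadrant of falls in both kinds of cells.

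The difference between these responses was tested as an interaction, and no factor passed. The interaction of Sox9 was −0.72 on the log2 scale (standard error 0.21, 95% interval −1.17 to −0.28), with an unadjusted p of 0.00369 and an adjusted p of 0.771 from edgeR. That of Foxa2 was 0.26 (standard error 0.12, 95% interval 0.000107 to 0.52), with an unadjusted p of 0.0499 and an adjusted p of 0.951 (edgeR). Gata6, Sox4, Klf4 and Klf5 had interactions of −0.45, −0.14, −0.21 and −0.09, with adjusted p of 0.960 for the first 3 and 0.989 for Klf5 (edgeR). With both libraries that stood apart left out the interactions of Sox9, Foxa2 and Klf5 were −0.58, 0.34 and −0.29, and that of Gata6 turned to 0.17, with adjusted p of 0.204, 0.152, 0.303 and 0.627 (edgeR). Over all genes the test called 0 of 12425 (0%), with 638 at an unadjusted p under 0.05, while DESeq2 called 15, none of them among the 6 factors.

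Knockdown of Pdcd5 without TGF-β1 was compared next, against the same NC libraries that served as the untreated side of the first comparison. Sox9 rose and Klf5 fell. At an adjusted p under 0.05, 1 of the 6 factors was higher and 1 lower, where 0.901% of all genes were higher and 2.54% lower (3.44% in all). Groups did not overlap for 3 of the 6 factors, namely Foxa2, Sox9 and Klf5, and for 23.1% of all genes. The median log2 fold change was 0.13 over the 6 and 0.02 over all genes.

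Sox9 rose by 65.8%, a log2 fold change of 0.73 (standard error 0.14, 95% interval 0.43 to 1.03, adjusted p = 0.0097, edgeR). This call was lost without NC replicate 2 (0.68, adjusted p = 0.0639), without NC replicate 3 (0.69, adjusted p = 0.0595) and without siPdcd5 replicate 3 (0.69, adjusted p = 0.0529), all from edgeR. Without replicate 1 of siPdcd5, which stood apart, the value was 0.66 (adjusted p = 0.0411, edgeR). Klf5 fell by 43.9% (log2 fold change −0.83, standard error 0.13, 95% interval −1.11 to −0.56, adjusted p = 0.00234, edgeR), and its log2 fold change was −0.74 without that library. Foxa2 had a log2 fold change of 0.24 (standard error 0.0849, 95% interval 0.06 to 0.42) and did not pass the test (adjusted p = 0.169, edgeR), although its groups did not overlap, and its value was 0.20 without that library. Gata6, Sox4 and Klf4 had values of 0.10, 0.07 and 0.16 with adjusted p of 0.880, 0.792 and 0.605 (edgeR), and without replicate 1 of siPdcd5 those of Gata6 and Sox4 were −0.08 and −0.00253.

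**Figure D4:**
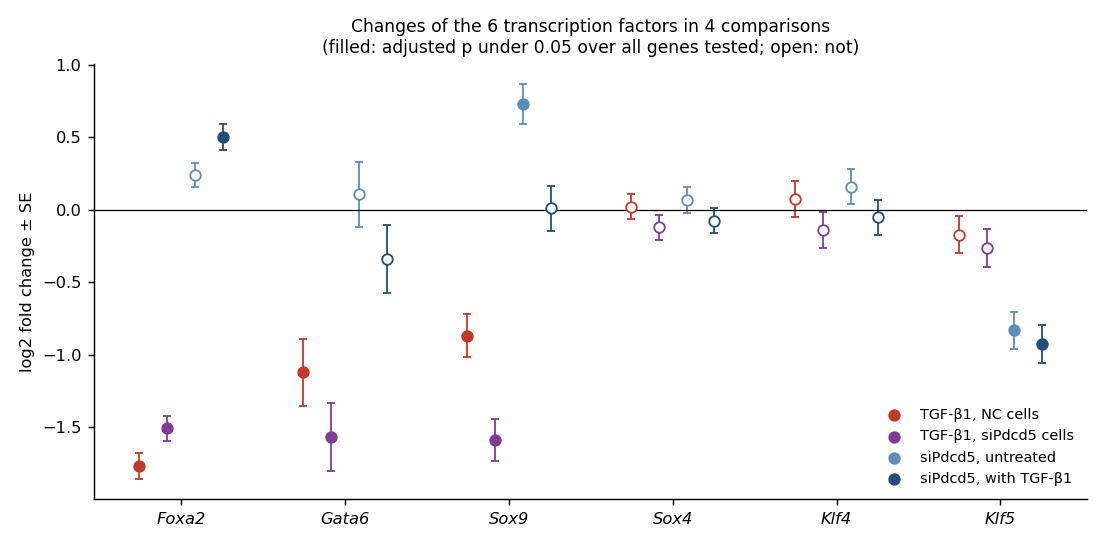
Log2 fold changes of the 6 tested factors in 4 comparisons (TGF-β1 in NC cells, TGF-β1 in siPdcd5 cells, knockdown without and with TGF-β1), with bars for the standard error of the edgeR fit and filled points for an adjusted p under 0.05. Filled points mark falls of Foxa2, Gata6 and Sox9 after TGF-β1 in both kinds of cells, falls of Klf5 after both knockdowns, and rises of Sox9 (0.73) and Foxa2 (0.50) after 1 knockdown comparison each.

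Knockdown in cells given TGF-β1 left Foxa2 higher and Klf5 lower than in treated NC cells. Foxa2 rose by 41.4% (0.50 on the log2 scale, standard error 0.0877, 95% interval 0.31 to 0.69, adjusted p = 0.00925, edgeR). That call was lost when only the 6 libraries compared were fitted (0.51, adjusted p = 0.0839) and without replicate 2 of siPdcd5 + TGF-β1 (0.45, adjusted p = 0.0678), both from edgeR. Klf5 fell by 47.4% (log2 fold change −0.93, standard error 0.13, 95% interval −1.21 to −0.65, adjusted p = 0.00191, edgeR). At an adjusted p under 0.05, 0.33% of all genes were higher and 1.22% lower (1.55% in all), against 1 and 1 of the 6 factors, and groups did not overlap for 18.9% of genes and for 2 of the 6. Sox9 had a log2 fold change of 0.00763 (95% interval −0.32 to 0.34), and Gata6, Sox4 and Klf4 had −0.34, −0.08 and −0.05, with adjusted p of 0.993, 0.571, 0.776 and 0.903 (edgeR). Without replicate 2 of NC + TGF-β1, which stood apart, Foxa2 had 0.53 (adjusted p = 0.00716) and Klf5 −1.04 (adjusted p = 2.04e-04), both from edgeR, and the value of Gata6 was 0.08. The median log2 fold change was −0.07 over the 6 factors and −0.02 over all genes.

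The 2 knockdown comparisons used separate libraries, and the test of their difference is the interaction given above. It did not show that the effect on Sox9 (0.73 without and 0.00763 with TGF-β1) or on Foxa2 (0.24 and 0.50) differed between the treatments after adjustment over all genes.

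Relatives of the 10 factors in the Fox a, Gata, Nkx2, Sox, Klf and p53 families ranged from silent to well expressed. Of 42 such genes, 20 had at most 3 counts in any library, 11 of these had none, and 17 were tested. Foxa3 had 16 counts in all and Trp73, the relative of Trp63, had 0. After TGF-β1 in NC cells 1 of the 17 was higher and 3 were lower, against 8.57% and 6.77% of all genes, and the median log2 fold change was −0.20 against 0.00499. Klf10, a factor induced early by TGF-β, rose from 22.1 ± 4.01 to 36.8 ± 8.25 CPM (SD, n = 3; log2 fold change 0.73, adjusted p = 0.00831, edgeR). Sox5 (−0.62), Nkx2-3 (−0.49) and Sox12 (−0.38) were the 3 that fell on the log2 scale. In siPdcd5 cells 0 rose and 4 fell, namely Sox5 (−0.69), Klf9 (−0.58), Nkx2-3 (−0.34) and Klf13 (−0.31), against 8.5% and 7.61% of all genes, with a median of −0.14 against −0.03. After knockdown 0 of the 17 were called, against 1.55% of all genes with TGF-β1 and 3.44% without it, and the medians were −0.18 and −0.09. Missing the threshold does not show that these genes did not differ. Without TGF-β1 the groups did not overlap for Gata3 (−0.78, adjusted p = 0.0649, edgeR), Klf6 (−0.30) and Nkx2-3 (−0.20), and for 23.1% of all genes. With TGF-β1 they did not overlap for Klf12 (−1.23, adjusted p = 0.209, edgeR), Klf7 (−0.33) and Sox12 (0.28), and for 18.9% of all genes. Klf12 had at most 48 counts in a library. These genes were named after their values were seen, and nothing is read from them.

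Other transcription factors described in the lung, not all of them limited to epithelium, included several that fell under TGF-β1. Of 36 listed genes, 15 had at most 3 counts in any library and 15 were tested. After TGF-β1 in NC cells 0 were higher and 4 lower of the 15, against 8.57% and 6.77% of all genes, with a median of −0.21 against 0.00499. In siPdcd5 cells 0 were higher and 7 lower, against 8.5% and 7.61%, with a median of −0.31 against −0.03. Nothing particular to the list is read from these counts. Foxc1, a forkhead factor, fell from 25.8 ± 2.18 to 11.0 ± 2.71 CPM in NC cells (SD, n = 3; log2 fold change −1.23) and from 23.3 ± 1.99 to 13.6 ± 1.52 CPM in siPdcd5 cells (−0.77). Cebpd, a leucine zipper factor, fell by 0.89 on the log2 scale in NC cells and by 0.83 in siPdcd5 cells. The nuclear factor I genes also fell in both kinds of cells, Nfia with log2 fold changes of −0.57 and −0.59 and Nfib with −0.43 and −0.31.

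In siPdcd5 cells 3 more genes of that list were called, and none of their interactions passed the test. Foxp2, a forkhead repressor, had a log2 fold change of −2.07 after TGF-β1 but at most 25 counts in a library, and Rfx2, a factor of ciliated cells, had −0.88. Cebpa, a leucine zipper factor of differentiated epithelium, had −0.65 after TGF-β1 in these cells. It was also the 1 of the 15 called after knockdown with TGF-β1 (1.55% of all genes), where without it 0 were called (3.44%), at 2.86 ± 0.213 CPM in siPdcd5 + TGF-β1 against 5.62 ± 0.816 CPM in NC + TGF-β1 (SD, n = 3; log2 fold change −0.97, adjusted p = 0.0257, edgeR). The medians after knockdown were 0.09 without TGF-β1 and −0.00833 with it. Several listed factors were scarce, with 3 counts of Grhl2, 4 of Elf3 and 2 of Ehf over all libraries. Foxj1, Spdef and Mcidas had 18, 27 and 34 counts in all and were not tested. Rfx2 and Rfx3 passed the filter, at 6.21 ± 0.496 and 6.79 ± 1.72 CPM in NC cells (SD, n = 3).

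**Figure D5:**
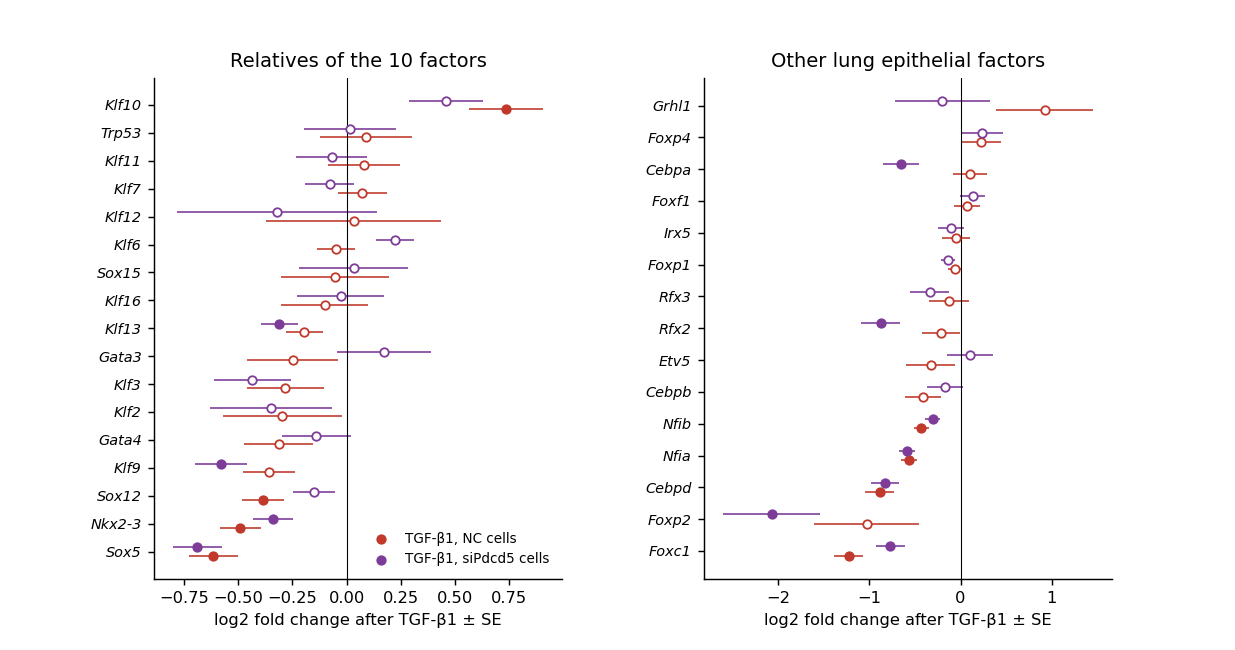
Log2 fold changes after TGF-β1 in NC cells (red) and siPdcd5 cells (purple) for the tested relatives of the 10 factors (17 genes, left) and for other lung transcription factors (15 genes, right), with bars for the standard error and filled points for an adjusted p under 0.05 in edgeR. The filled points lie below 0 except that of Klf10 in NC cells (0.73).

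Genes described as targets of Nkx2-1 and the Foxa factors in lung were mostly at or near 0 counts. The list is not limited to genes that these factors raise, and it holds the goblet cell mucin Muc5ac, which had 0 counts. Of 13 described targets, 8 had at most 3 counts in any library, 4 of these had none, and 2 were tested. Abca3, a lipid transporter of lamellar bodies, fell from 25.5 ± 0.915 to 20.3 ± 0.604 CPM after TGF-β1 in NC cells (SD, n = 3; log2 fold change −0.33, adjusted p = 0.0329, edgeR) and was not called in the other comparisons. Cdh1, which encodes E-cadherin, averaged 3.18 ± 0.827 CPM in NC and 2.12 ± 0.248 CPM in NC + TGF-β1 and was not called in any comparison.

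Markers of cell kinds moved in the same libraries as the factors. The summed level of the 20 club cell markers, with Scgb3a2 and Cyp2f2 at 0, was 710.2 to 720.5 CPM in NC, 314 to 427 CPM in NC + TGF-β1, 389 to 465 CPM in siPdcd5 and 259 to 275 CPM in siPdcd5 + TGF-β1. Most of it was Aldh1a1, which fell by 1.22 on the log2 scale after TGF-β1 in NC cells and by 0.86 after knockdown without TGF-β1. The 8 general epithelial markers, of which 4 were tested, summed to 676 to 699, 1243 to 1678, 549 to 700.0 and 1586 to 1647 CPM in the same order. Among them the keratins Krt8 and Krt18 made up most of the sum and rose after TGF-β1, with log2 fold changes of 1.36 and 1.05 in NC cells. Cdh1 (−0.58) and Krt7 (−0.06) were tested too and were not called there. Epcam, Esrp1, Cldn7 and Krt19 had 1, 4, 10 and 13 counts in all.

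The 11 mesenchymal markers, of which 8 were tested and 1 had 0 counts, summed to 6246 to 6637, 10039 to 10835, 5193 to 5479 and 7563 to 8119 CPM in untreated NC, treated NC, untreated siPdcd5 and treated siPdcd5 cells. After TGF-β1 in NC cells 5 of the 8 were higher and 2 lower, where 8.57% of all genes tested were higher and 6.77% lower. On the log2 scale Col1a2 (2.78), Acta2 (1.48), Col1a1 (1.17), Pdgfrb (0.98) and Col3a1 (0.52) rose. The 2 that fell were Dcn (−2.08) and Vim, which encodes vimentin (−0.61). Pdpn, which is on both the basal and the alveolar type 1 list, averaged 415, 310, 352 and 341 CPM in the 4 groups in that order. It made up most of the sum of either list. The 9 basal markers, of which 2 were tested, summed to 399 to 453, 399.7 to 569, 275 to 407 and 414 to 441 CPM in the same order. Among them the keratin Krt14 averaged 10.8 ± 1.02, 187 ± 20.9, 3.51 ± 1.51 and 82.4 ± 6.64 CPM (SD, n = 3), with log2 fold changes of 4.11 after TGF-β1 in NC cells, −1.60 after knockdown without TGF-β1 and −1.18 with it, while Krt5 had at most 3 counts in a library. The 6 alveolar type 1 markers summed to 634 to 679, 380.2 to 498, 429 to 568 and 442 to 457 CPM. Of these, 5 were tested, and only Cav1, which encodes caveolin, was called after TGF-β1 in NC cells or after knockdown without TGF-β1. It fell by 0.94 and 0.80 on the log2 scale. Values not called in these 2 comparisons were −0.42 and −0.24 for Pdpn, −0.46 and 0.15 for Aqp5, 0.22 and 0.49 for Ager, and −1.06 and −0.35 for Rtkn2. Over all genes 15.3% and 3.44% were called. The ciliated markers summed to 6.97 to 7.53, 9.49 to 13.7, 8.04 to 10.4 and 9.01 to 10.5 CPM. Summed levels over all 12 libraries were 0.738 to 3.16 CPM for goblet markers, 21.9 to 29.3 CPM for alveolar type 2 markers and 8.48 to 14.02 CPM for immune and endothelial markers. The part of any of these in the changes of the factors was not tested.

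The genes whose levels ran most like Foxa2 were found by Pearson correlation of log2 CPM over the 12 libraries among 9127 genes whose mean log2 CPM was 3 or more. The highest were Zfp462 (r = 0.992), Mt1 (0.989), Gda (0.988), 1700025G04Rik (0.987) and Rab27b (0.985). The most opposite were Nupr1 (r = −0.996), Serpini1 (−0.995), Iqgap1 (−0.990), Trib3 (−0.989) and Mmp14 (−0.988). Among the factors themselves r with Foxa2 was 0.92 for Sox9 and 0.87 for Gata6, and 0.27, 0.13 and 0.02 for Sox4, Klf4 and Klf5. The 12 points share 4 groups and their treatments, so these values describe likeness across these libraries and carry no p.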

How the data were processed

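QuantSeq 3′ mRNA-seq single-end reads of 12 C22 libraries were aligned with Bowtie2, and unique and multiple alignments were counted per gene with Bedtools. The authors deposited these as whole read counts per gene symbol, without normalization, and the submitters' processing notes name mm10. Quantile normalization, which the study's methods apply afterwards, was run here as an alternative. Which annotation was used, and whether counting was strand-specific, is not given in the sources used here.

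Groups were taken from the labels. Counts were analysed with R 4.3.3, edgeR 4.0.16 and limma 3.58.1. Genes were kept by the default filter of edgeR, TMM factors scaled the libraries, and 1 model of 4 groups was fitted to 12425 genes by quasi-likelihood, with Benjamini-Hochberg adjustment over all of them and calls at an adjusted p under 0.05. CPM used TMM-scaled library sizes, and log2 CPM a prior count of 2. The 44 rows that repeat a symbol were kept as separate genes. Library depth was 12809857 to 17714828 counts, and without molecular identifiers the floor of 3 counts covers counting error only. The fit was also run on counts simulated with the spread estimated from these libraries. No library was made to stand apart in them, so they do not bear on the libraries that did.

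The 10 factors and the gene lists were chosen with earlier results of these data known. All 10 factors are named, the 6 tested ones in every comparison and the other 4 by their raw counts only, Pdcd5 is named as the check of the labels, and from the lists of relatives and of other lung factors at most the 4 largest rises and 4 largest falls among called genes were picked per comparison, and a gene picked in one comparison is also given in others where it was called. For likeness to Foxa2 the 5 genes with the highest and the 5 with the lowest r are named. Marker genes, target genes and listed genes near 0 counts or not called were named after their values were seen. Positions come from the GRCm38 annotation and promoter windows from the RefSeq table of GRCm38.p6, which holds windows for 6 of the 10 factors. The planned protein identities were not computed here.

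Alternatives were upper-quartile factors, the Wald test of DESeq2 1.42.0 with its size factors, quantile normalization with limma-trend, no filter, a minimum of 10 counts in each library, a fit to only the groups compared, the replicate number as a block, and each library left out in turn. Leaving out both libraries that stood apart was chosen after seeing the data.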

Additional observations from a re-analysis of the deposited data

How the results depend on the processing

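Of the 10 called values of the factors, 0 reversed under the 20 alternatives of each, 195 of 200 alternative values stayed past the threshold, and the 5 that did not are those of Sox9 and Foxa2 given in the report. The number of factors called was 1 in place of 2 for knockdown with TGF-β1 when only the groups compared were fitted. Leaving out 1 library gave 1 to 2 for each knockdown comparison.

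Of the values not called, 20 reversed, none of them called. For TGF-β1 in NC cells, upper-quartile factors gave −0.0146 for Sox4, and quantile normalization gave −0.0890 for Sox4 and −0.0456 for Klf4. Quantile normalization gave 0.0191 for Klf4 in the knockdown with TGF-β1. With both libraries that stood apart left out, Sox4 was −0.0359 for TGF-β1 in NC cells and −0.00426 for the knockdown alone, and Gata6 was −0.0804 for the knockdown alone, 0.0864 for the knockdown with TGF-β1 and 0.17 for the interaction. Leaving out 1 library gave −0.0264 to 0.0771 for Sox4 and −0.0828 to 0.20 for Klf4 with TGF-β1 in NC cells. For the knockdown alone it gave −0.0785 to 0.20 for Gata6 and −0.00253 to 0.11 for Sox4. For the knockdown with TGF-β1 it gave −0.52 to 0.0808 for Gata6, −0.0676 to 0.0732 for Sox9 and −0.18 to 0.11 for Klf4, and for the interaction of Klf5 −0.21 to 0.00944.

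Counts over all genes depended on the libraries kept. With both libraries left out they were 3663 (TGF-β1 in NC cells), 3139 (TGF-β1 in siPdcd5 cells), 1146 (knockdown), 1062 (knockdown with TGF-β1) and 200 (interaction), against 1906, 2002, 427, 192 and 0. DESeq2 gave 714 for knockdown, 459 for knockdown with TGF-β1 and 15 for the interaction. Fitting only the groups compared gave 44 for knockdown with TGF-β1. Leaving out 1 library gave 167 to 667 for knockdown, 73 to 322 for knockdown with TGF-β1 and 0 to 2 for the interaction, the highest each time without replicate 2 of NC + TGF-β1. The interaction was not fitted for only the groups compared, since it uses all 4. The cause of these moves was not tested.

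The labels give the same replicate numbers in each group, but same-numbered libraries deviated together with r over 0.1 in every pair for 0 of the 4 comparisons (r from −0.32 to 0.17), so the numbers were not taken to pair the libraries. This rule cannot exclude a pairing, since each deviation is taken from a mean of 3 libraries. For TGF-β1 in NC cells the mean r was 0.113 for same-numbered libraries and −0.0569 for the others. With the replicate block 107 genes were called for knockdown with TGF-β1, Sox9 in that comparison was −6.94e-05, and all calls of the factors were unchanged.

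Depth limits Foxa1, Nkx2-1, Sox2 and Trp63, which had at most 3 counts in a library and were not compared between groups.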

Other observations

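Gata6 ran closely with a cytoskeletal gene, a likeness chosen after its values were seen. Over the 12 libraries the highest Pearson r of log2 CPM with Gata6 among 9127 genes was that of Vim (0.991), and Krt18 was among the 5 most opposite (−0.982). Vim fell by 0.61 on the log2 scale after TGF-β1 in NC cells and by 0.77 in siPdcd5 cells (adjusted p of 0.00585 and 0.00108, edgeR), and it did not pass the test after knockdown (0.07 without and −0.09 with TGF-β1). The points share 4 groups and 2 libraries that stood apart, and the relation has no p.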
